A study of Glycine max with 10 samples.

Results

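The first response of the soybean shoot apical meristem (SAM) to short days (SDs) was examined by pooling the arrays at 1 and 2 SDs and comparing them with those of the vegetative SAM at 0 SD, over all soybean probe sets. A probe set is the group of short probes that reports 1 transcript. The comparison uses 6 of the 10 arrays of a time course of floral induction. Of these, 4 are at 1 and 2 SDs (called the induced arrays) and 2 at 0 SD (the vegetative arrays). Induced refers here to the short days given, and not to a floral state or to a cause. The other 4 arrays, at 4 and 6 SDs, are used to follow the transcripts afterwards. Each time point has 2 biological replicates from separate collections of tissue. All plants were of the cultivar Bragg and were raised for 10 days in a glasshouse. Those of the 1 and 2 SD groups then went into a growth chamber, where they had a day of 10 h, 100 μmol of light per square metre per second and a constant 24°C, whereas those of the 0 SD group were taken from the glasshouse without being moved. The SAMs were cut out under the microscope, approximately 70 for each time point by the sample labels, and 3 μg of total RNA went onto each array. No array of plants kept in long days in the chamber is used here. The shorter day, the move to the chamber with its light and temperature, and the greater age of the plants therefore cannot be told apart in any difference below. The hour of dissection is not given in the sources used here.

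The SAM is the dome of dividing cells at the shoot tip that makes leaves while the plant is vegetative and flowers once it is induced. Soybean is a short-day plant. In Arabidopsis the length of the day is read in the leaves, through the circadian clock and light receptors, and the FT protein travels to the meristem, where it switches on floral identity factors such as APETALA1. Sugars and the hormones gibberellin, abscisic acid, auxin and jasmonate also reach or act in the meristem.

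The values are log2 intensities, so that a difference of 1 is a doubling. A probe set was tested if it was brighter than the median soybean probe set of its array on at least 2 of the 6 arrays, which kept 19701 of 37593. A probe set dim on both 0 SD arrays could enter only through its level at 1 and 2 SDs. Unless given with no filter, the counts and medians of gene lists below are over tested members. They are therefore not those of whole lists. The arrays differed among themselves in a way that touches every count below. Over the tested probe sets, 1 SD replicate 1, 1 SD replicate 2 and 2 SD replicate 1 correlated at 0.989 to 0.99 with each other. 2 SD replicate 2 stood apart from them, at 0.956 to 0.972, and correlated at 0.971 with 0 SD replicate 2 and at 0.929 with 0 SD replicate 1. The pair of 0 SD arrays correlated at 0.965.

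The tissue was checked by markers of the meristem, of flowers and of green tissue. The KNOX homeobox transcripts were STM (a pair of probe sets, 1 of them named H1), KNAT2 and KNAT4. STM is needed to maintain the vegetative SAM in Arabidopsis. For KNAT4 the paper proposes only that it may be a candidate for a role in keeping up the meristem. Over these 4 probe sets the mean was 9.27 to 9.61 at 1 and 2 SDs, against 9.16 and 9.3 at 0 SD. It was higher at 6 SDs, at 10.57 on both arrays, so that the presence of these transcripts alone does not mark a meristem as vegetative. The differences were 0.38 and 0.27 for STM and 0.38 for KNAT2, whereas KNAT4 went the other way, by −0.18. None of these 4 probe sets passed the test. The transcripts of the floral factors AP1 and SEP3 lay at 3.98 to 4.88 on the arrays at 1 and 2 SDs and at 3.97 to 4.97 at 0 SD, below the lower quartile of every array. FRUITFULL lay at 6.19 and 6.2 at 1 SD and at 6.97 and 7.59 at 2 SD, against 5.9 and 6.17 at 0 SD. The 3 floral probe sets were too dim for the main test. With no filter their differences were 0.7 for FRUITFULL (adjusted p = 0.559 by limma), −0.12 for AP1 (adjusted p = 0.825) and 0.27 for SEP3 (adjusted p = 0.687). Markers of green tissue were 33 probe sets for photosynthesis and chloroplast proteins. Their summed linear intensity was 59247 to 68850 at 1 and 2 SDs, against 69218 and 72997 at 0 SD, without overlap. Their mean log2 levels did overlap, at 8.89 to 9.05 at 1 and 2 SDs against 9.03 and 9.0 at 0 SD. Of the 25 tested, 1 fell (0.259% of all tested probe sets fell) and the median difference was 0.03. The part of young leaf tissue in the results was not tested, and fewer cells of a type and less RNA per cell cannot be told apart in such samples.

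After 1 to 2 SDs more transcripts had risen than fallen. By limma on the 6 arrays, with Benjamini-Hochberg adjusted p under 0.05, 162 probe sets were higher at 1 and 2 SDs than at 0 SD (0.822% of those tested) and 51 were lower (0.259%). The median difference over all probe sets tested was −0.029. The rises were also wider than the falls, with 124 of the 162 at least 2-fold and 58 at least 4-fold, against 23 and 3 of the 51. The median was 1.52 over the rises and −0.96 over the falls. In each of these 213 probe sets all 4 arrays at 1 and 2 SDs lay beyond both 0 SD arrays. Among all tested, 2092 lay above in this way (10.6%) and 2928 below (14.9%), so that a lack of overlap alone was more common among transcripts that stood lower. At an unadjusted p under 0.05 there were 2920 probe sets.

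**Figure D1:**
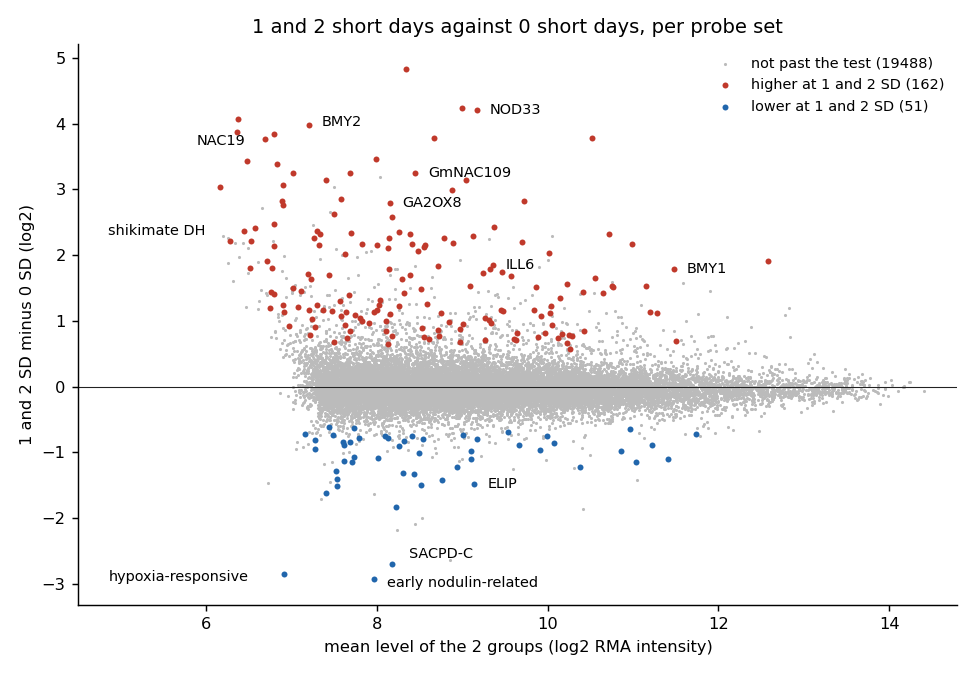
Each point is a probe set, with the mean level of the 2 groups (log2 intensity) on the horizontal axis and the difference of the 1 and 2 SD arrays from the 0 SD arrays (log2) on the vertical axis. The 162 probe sets that rose reach 4.82 and the 51 that fell reach −2.93, and both kinds occur over most of the range of intensity.

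These counts depended on single arrays. Without 2 SD replicate 2 there were 293 rises and 97 falls, and without 0 SD replicate 2 there were 206 and 24. Leaving out any other array left 17 to 27 rises and 3 to 8 falls. In every such fit all 162 kept their positive and all 51 their negative difference. That outcome was fixed in advance, since the groups do not overlap in any of these probe sets, and it lends no support. The call held in every alternative that was run for 9 of the 162 rises and for 2 of the 51 falls. The 9 include shikimate dehydrogenase, the NAC factors NAC19 and GmNAC109, and probe sets of LOC100800709, LOC100306332, LOC100306576 and LOC100785506, and the 2 falls are SACPD-C and a hypoxia-responsive protein. Of the 162 rises, 83 had their lowest value at 1 or 2 SDs on 2 SD replicate 2, and in 122 of them 0 SD replicate 2 was above replicate 1 (10984 of 19701 overall). Whether that lower contrast between the replicate 2 arrays has a source in the plants or in handling was not tested.

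**Figure D2:**
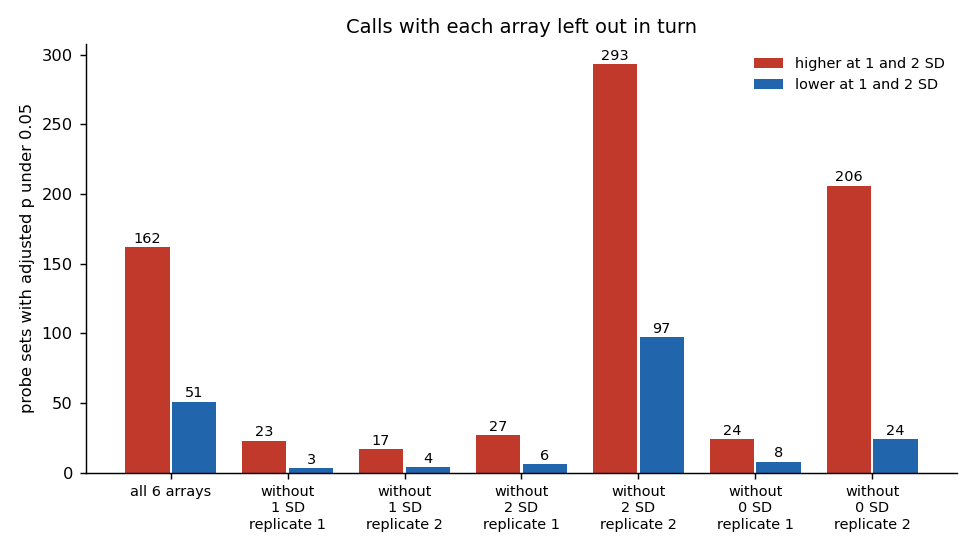
Bars give the number of probe sets with adjusted p under 0.05, in red for those higher and in blue for those lower at 1 and 2 SDs than at 0 SD, with all 6 arrays and with each array left out in turn. The counts are highest without 2 SD replicate 2, at 293 and 97, and lowest when an array of 1 SD is left out.

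Transcripts of β-amylase, the enzyme that releases maltose from starch, were among the largest rises. BMY2 had 9.12 and 9.86 at 1 SD and 9.55 and 8.25 at 2 SD, against 5.13 and 5.3 at 0 SD. All 4 induced arrays were far above both vegetative ones, which were near the lower quartile of the array. BMY2 was thus 15.8-fold higher at 1 and 2 SDs (log2 difference 3.98, standard error 0.4, adjusted p = 0.015 by limma). A second probe set of the gene differed by 3.87 (adjusted p = 0.015), and another, too dim for the test, had 6.19 to 6.79 at 1 and 2 SDs against 4.38 and 4.46 at 0 SD. The call of the first pair ended without 0 SD replicate 1, either 1 SD array or 2 SD replicate 1, with adjusted p up to 0.0954 and a difference that stayed between 3.68 and 4.29.

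BMY1, another β-amylase, was abundant in the vegetative SAM already. Its brightest probe set had 12.51 and 12.63 at 1 SD and 12.37 and 11.98 at 2 SD, against 10.34 and 10.83 at 0 SD, with no overlap. The difference was 1.79, or 3.45-fold (standard error 0.21, adjusted p = 0.0205). A further pair of probe sets of that gene differed by 1.82 and 1.93 and did not pass the test (adjusted p = 0.107 and 0.0861), and in both 2 SD replicate 2 was the lowest of the induced arrays. A probe set annotated with the same name from another transcript cluster differed by −0.55 (adjusted p = 0.145). The call of BMY1 ended without the same arrays as that of BMY2, with adjusted p up to 0.125. Of the 17 tested probe sets for starch and sugar metabolism, these 3 rose, none fell, and the median difference was 0.06 (0.822% of all tested rose). With no filter 4 of 40 rose and none fell, with a median of 0.03. Without 0 SD replicate 1, either 1 SD array or 2 SD replicate 1 none of the 17 passed, and without 2 SD replicate 2 there were 5.

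Shikimate dehydrogenase, an enzyme on the way to the aromatic amino acids, had the smallest standard error of the 12 largest rises with a name. It had 7.44 and 7.63 at 1 SD and 7.8 and 7.63 at 2 SD, against 5.22 and 5.31 at 0 SD. The 4 induced arrays lay close together and all were well above the vegetative pair. The difference was 2.36, or 5.14-fold (standard error 0.12, adjusted p = 0.00209), and held whichever array was left out (2.3 to 2.43, adjusted p up to 0.0304). Of the named transcripts bright enough for the test it was the only one to differ between 4 SD and the mean of 1 and 2 SDs, by −1.88 (adjusted p = 0.0184).

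Transcripts for gibberellin 2-oxidases, which inactivate gibberellins, rose in the meristem. GA2OX8, by the brighter of its 2 probe sets, had 9.69 and 9.78 at 1 SD and 9.67 and 9.06 at 2 SD, against 6.41 and 7.09 at 0 SD. The groups did not overlap, and 2 SD replicate 2 was the lowest of the induced arrays. The difference was 2.8, or 6.97-fold (standard error 0.26, adjusted p = 0.0109), and a second probe set of GA2OX8 differed by 1.64 (adjusted p = 0.0261).

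GA2OX6, by the brighter of its 2 probe sets, had 9.62 and 9.77 at 1 SD and 9.38 and 9.19 at 2 SD, against 7.2 and 7.44 at 0 SD. It too was higher on all 4 induced arrays, by 2.17, or 4.5-fold (standard error 0.18, adjusted p = 0.00725), and a second probe set by 2.22 (adjusted p = 0.0423). Of the 20 tested gibberellin probe sets these 4, a pair for each of 2 genes, rose and none fell, and the median difference was 0.1. Both GA2OX8 probe sets and the dimmer GA2OX6 one were below the array median on both 0 SD arrays. They entered the test only through 1 and 2 SDs. With no filter 4 of 38 gibberellin probe sets rose and none fell, with a median of 0.02. Over all probe sets tested, 0.822% rose and 0.259% fell. The list count was 4 when 2 SD replicate 2 was left out, 2 when 0 SD replicate 2 or 2 SD replicate 1 was, 1 when an array of 1 SD was and 0 when 0 SD replicate 1 was, and over these fits adjusted p reached 0.0582 and 0.0562 for the brighter probe sets of GA2OX8 and GA2OX6 and 0.149 for the dimmer one of each. In the fit of all 10 arrays both GA2OX6 probe sets missed the threshold (adjusted p = 0.361 and 0.322), whereas both of GA2OX8 passed.

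Single transcripts of auxin, abscisic acid and jasmonate metabolism or response were also higher, where 0.822% of all tested probe sets rose. ILL6, by annotation an IAA-amino acid hydrolase, of the kind that frees auxin from its conjugates, had 9.91 and 10.43 at 1 SD and 10.47 and 10.32 at 2 SD, against 8.24 and 8.63 at 0 SD. Both time points lay above the vegetative arrays, and the difference was 1.85, or 3.6-fold (standard error 0.19, adjusted p = 0.0152). It was 1 of 18 tested auxin probe sets to pass, and the call ended without 0 SD replicate 1, 1 SD replicate 2 or 2 SD replicate 1 (adjusted p up to 0.0948).

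A 9-cis-epoxycarotenoid dioxygenase, which makes the cleavage that commits carotenoids to abscisic acid, had 8.49 and 8.23 at 1 SD and 8.15 and 8.58 at 2 SD, against 7.15 and 6.79 at 0 SD. The increase of 1.39, or 2.63-fold, was nearly the same at both time points (standard error 0.17, adjusted p = 0.0205). It was the only one of 6 tested abscisic acid probe sets to pass, and the zeaxanthin epoxidase transcript of the same pathway differed by −0.66 (adjusted p = 0.114).

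GmJAZ1, a member of the JAZ family that represses jasmonate responses and is itself induced by the hormone in Arabidopsis, was represented by a pair of probe sets. The brighter one had 11.15 and 11.66 at 1 SD and 11.66 and 11.61 at 2 SD, against 9.9 and 10.07 at 0 SD. The only induced array below the rest was 1 SD replicate 1, and all were above the vegetative pair, by 1.54 on average, or 2.9-fold (standard error 0.17, adjusted p = 0.0178). The second probe set differed by 1.46 (adjusted p = 0.0261). The other 40 of the 42 tested jasmonate and lipoxygenase probe sets did not pass, although their list had a median of 0.27 (0.21 over 58 probe sets with no filter). The calls of the dioxygenase and of the dimmer GmJAZ1 probe set ended without any array but 2 SD replicate 2 (adjusted p up to 0.175), and that of the brighter one without 0 SD replicate 1, 1 SD replicate 2 or 2 SD replicate 1 (adjusted p up to 0.117). The dioxygenase and the dimmer GmJAZ1 probe set also missed the threshold in the fit of 10 arrays (adjusted p = 0.0572 and 0.0647).

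Among transcription factors the NAC family, plant regulators of ageing, stress and organ boundaries, had the most members that rose. NAC19, by the first of its 2 probe sets, had 8.89 and 8.79 at 1 SD and 8.31 and 8.3 at 2 SD, against 4.37 and 5.25 at 0 SD. The vegetative arrays were near or under the lower quartile, and all induced arrays were above the array median. The difference was 3.76, or 13.6-fold (standard error 0.28, adjusted p = 0.00573).

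GmNAC109 had 10 and 10.39 at 1 SD and 9.88 and 10.02 at 2 SD, against 6.36 and 7.28 at 0 SD. Its 4 induced arrays were close together, and the vegetative pair was spread by almost 1 log2 unit. The difference was 3.25, or 9.52-fold (standard error 0.26, adjusted p = 0.00725). This probe set and that of NAC19 come from the same transcript cluster of the array, and another probe set annotated with the GmNAC109 gene differed by only 0.22 (adjusted p = 0.543), so that the gene behind the signal is uncertain.

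The remaining NAC calls were NAC27 with a difference of 3.04 (adjusted p = 0.0241), a second NAC19 probe set with 2.82 (adjusted p = 0.0235), NAC018 with 2.63 (adjusted p = 0.00965) and NAC69, given to complete the count, with 1.8 (adjusted p = 0.00965). In all, 6 of the 18 tested NAC probe sets rose and none fell, where 0.822% of all tested rose. The median difference of these 18 was 1.34, against a median of −0.029 over all tested. That median rests on members that passed the filter, and it was 0.73 over the 26 probe sets kept by a filter at the 25th percentile and 0.24 over all 42 NAC probe sets with no filter, with 6 rises in both. With each array left out the count was 3 if 0 SD replicate 1 or 1 SD replicate 2 was missing, 4 if it was 1 SD replicate 1 or 2 SD replicate 1, 6 if it was 0 SD replicate 2 and 8 if it was 2 SD replicate 2. The calls of NAC19 (first probe set) and GmNAC109 held in each. That of NAC018 ended without 0 SD replicate 1 (adjusted p = 0.0666) and in the fit of 10 arrays (adjusted p = 0.073), that of NAC27 without 0 SD replicate 1, either 1 SD array or 2 SD replicate 1 (up to 0.154), and that of the second NAC19 probe set without any array but 2 SD replicate 2 (up to 0.133).

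**Figure D3:**
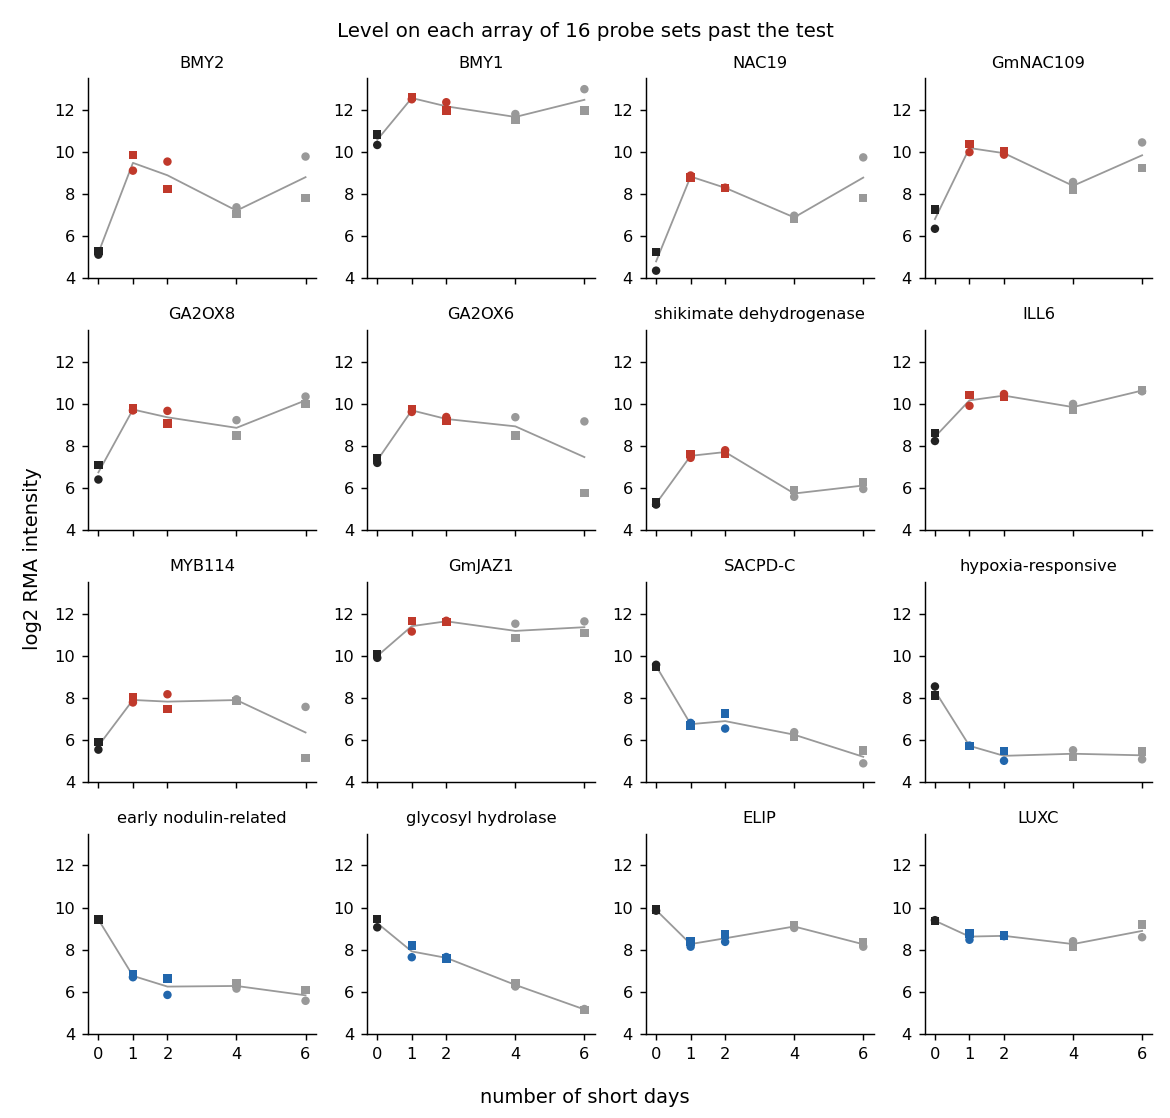
Level (log2 intensity) on each of the 10 arrays against the number of short days for 16 probe sets past the test, with circles for replicate 1, squares for replicate 2 and a line through the means. Arrays at 1 and 2 SDs are red where the probe set rose and blue where it fell, 0 SD is black, and 4 and 6 SDs, which are not in the test, are grey. The step between 0 and 1 SD is wider than the step between 1 and 2 SDs in all 16. The test that chose them pools 1 and 2 SDs and so favours this pattern.

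Other families had fewer members past the test. WRKY56, 1 of 35 tested WRKY probe sets to rise, had 8.49 and 8.75 at 1 SD and 8.19 and 8.17 at 2 SD, against 6.29 and 6.2 at 0 SD. This 4.47-fold rise (difference 2.16, standard error 0.18, adjusted p = 0.00725) held whichever array was left out, with adjusted p up to 0.0497. It did not pass in the fit of all 10 arrays (adjusted p = 0.073). BZIP105 was 4.36-fold higher by 1 of its 2 probe sets (adjusted p = 0.0269), the only call among 57 for bZIP factors, which ended without 0 SD replicate 1, either 1 SD array or 2 SD replicate 1 (up to 0.102), and the other probe set differed by 2.04 (adjusted p = 0.0928). Of 40 tested MYB probe sets 4 rose and none fell, where 0.822% of all tested rose. The 4 were MYB134, MYB114, MYB173 and MYB70, with differences of 2.15, 2.14, 1.15 and 1. RefSeq also lists MYB134 as a synonym of MYB114, so that these names are ambiguous. MYB114, MYB173 and MYB70 were below the array median on both 0 SD arrays and entered the test only through 1 and 2 SDs. With no filter 4 of 111 MYB probe sets rose and none fell, with a median of 0.03, where 173 of all 37593 rose. No AP2/ERF factor of 14 tested passed. The MYB count was 0 if a 1 SD array was left out, 1 for 2 SD replicate 1, 2 for 0 SD replicate 1, 3 for 0 SD replicate 2 and 6 for 2 SD replicate 2. In the fit of 10 arrays MYB134, MYB114 and MYB173 missed the threshold (adjusted p = 0.0853, 0.201 and 0.195).

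Of the clock transcripts 2 were higher and 1 was lower by the test on 6 arrays, and none passed in the fit of all 10 arrays. By the test on 6 arrays 0.822% of all tested probe sets rose and 0.259% fell. MYB114, which RefSeq also lists as GmLHY2b, belongs to the morning MYB factors of the circadian clock. It had 7.78 and 8.02 at 1 SD and 8.17 and 7.47 at 2 SD, against 5.54 and 5.9 at 0 SD. The difference was 2.14, or 4.41-fold (standard error 0.21, adjusted p = 0.0135), with no overlap of the groups.

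LHY itself was higher by 0.98, or 1.97-fold (by 1 of 2 probe sets, standard error 0.16, adjusted p = 0.0429), with 9.05 and 9.42 at 1 SD and 9.59 and 9.26 at 2 SD, against 8.3 and 8.4 at 0 SD. LUXC, a homologue of the evening clock component LUX ARRHYTHMO of Arabidopsis, had 8.47 and 8.77 at 1 SD and 8.64 and 8.67 at 2 SD, against 9.4 and 9.35 at 0 SD. It fell by 0.73 on the log2 scale (standard error 0.11, adjusted p = 0.0373). Both changes were small but exceeded the spread between replicates.

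Further clock and CONSTANS-like transcripts did not pass. LCL3, another LHY-like gene, differed by 2.46 (adjusted p = 0.0764) with 5 and 7.04 on the 0 SD arrays, and COL10 by 1.11 (adjusted p = 0.052). Of 11 tested probe sets for clock and photoreceptor proteins, 2 rose, 1 fell and the median was 0.64 (0.42 over 16 with no filter), and with each array left out 0 to 4 rose and 0 to 1 fell. In the fit of 10 arrays adjusted p was 0.201 for MYB114, 0.0526 for LHY and 0.181 for LUXC, and with a mean for each of the 3 time points on 6 arrays only MYB114 passed. Transcripts of the photoreceptors PHYA and CRY2B differed by 0.14 and −0.18 and did not pass. Such transcripts cycle through the day, and since the hour of dissection is not given, the part of the hour was not tested. The calls of LHY and LUXC ended without any array but 2 SD replicate 2 (adjusted p up to 0.253 and 0.216), and that of MYB114 without 0 SD replicate 1 or either 1 SD array (adjusted p up to 0.0885).

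The falls were led by 3 transcripts that were 6.47-fold to 7.63-fold lower after 1 to 2 SDs. The transcript annotated as early nodulin-related had 6.69 and 6.82 at 1 SD and 5.85 and 6.64 at 2 SD, against 9.43 and 9.43 at 0 SD. Its level on every induced array was over 2 log2 units below the vegetative pair, a difference of −2.93 (standard error 0.26, adjusted p = 0.00965). Its call ended without 0 SD replicate 1 (adjusted p up to 0.074).

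A hypoxia-responsive family protein had 5.73 and 5.71 at 1 SD and 5.01 and 5.48 at 2 SD, against 8.54 and 8.12 at 0 SD. The induced arrays were near the lower quartile of the array, and the difference of −2.85 (standard error 0.23, adjusted p = 0.00725) held whichever array was left out. These transcripts were the only 2 of 9 tested probe sets for hypoxia and fermentation to fall (0.259% of all tested fell), and none rose. The alcohol dehydrogenase ADH2, which regenerates NAD in the absence of oxygen, differed by −0.49 (adjusted p = 0.326), and the median of the list was −0.2.

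SACPD-C, a stearoyl-ACP desaturase that turns stearic into oleic acid, had 6.81 and 6.69 at 1 SD and 6.54 and 7.25 at 2 SD, against 9.57 and 9.46 at 0 SD. It was 6.47-fold lower, with a difference of −2.69 (standard error 0.19, adjusted p = 0.00495) that held whichever array was left out. The other 10 tested probe sets for fatty acid desaturation did not pass (0.259% of all tested fell). FAD3B and FAD3C, desaturases that make linolenic acid, each differed by −0.45 (adjusted p = 0.0906 and 0.169).

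The other falls with a name were smaller. A glycosyl hydrolase family 1 protein had 7.64 and 8.19 at 1 SD and 7.65 and 7.57 at 2 SD, against 9.06 and 9.46 at 0 SD, a 2.83-fold decrease (adjusted p = 0.0267). ELIP, an early light-inducible protein of the chloroplast that protects against excess light, had 8.14 and 8.39 at 1 SD and 8.37 and 8.71 at 2 SD, against 9.85 and 9.91 at 0 SD. It was 2.78-fold lower (difference −1.48, standard error 0.16, adjusted p = 0.0161). ELIP was the only photosynthesis and chloroplast transcript of 25 to pass, where 0.259% of all tested fell.

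Smaller decreases were those of a leucine-rich repeat receptor kinase (−1.33, adjusted p = 0.0261), the tau glutathione transferase GmGSTU2 (−1.13, adjusted p = 0.0234), SEOA, a sieve element occlusion protein of the phloem (−0.71, adjusted p = 0.0316), and chalcone isomerase CHI1A of flavonoid synthesis (−0.69, adjusted p = 0.0447). CHI1A was 1 of 31 tested flavonoid and isoflavonoid probe sets, of which no other passed (0.259% of all tested fell). A basic helix-loop-helix factor too dim for the main test had 5.52 and 5.76 at 1 SD and 5.63 and 5.6 at 2 SD, against 6.93 and 6.76 at 0 SD, and was lower by 1.22 in the fit with no filter (difference −1.22, adjusted p = 0.0108). The calls of ELIP and the receptor kinase ended without 0 SD replicate 1, either 1 SD array or 2 SD replicate 1 (adjusted p up to 0.0997 and 0.175) and that of the glycosyl hydrolase without either 0 SD array, 1 SD replicate 1 or 2 SD replicate 1 (up to 0.109). Those of GmGSTU2, SEOA and CHI1A ended without any array but 2 SD replicate 2 (up to 0.211). In the fit of 10 arrays the receptor kinase and SEOA missed the threshold too (adjusted p = 0.0618 and 0.205).

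Among stress and defence transcripts the rises were few and near 2-fold. The peroxidase PRX4 was higher by 1.03 (adjusted p = 0.0375) by 1 of its 3 tested probe sets, the others differing by 1.05 and 1.12. The disease resistance gene KR3 was higher by 0.94 (adjusted p = 0.029) and the late embryogenesis abundant transcript LEA-2 by 0.68 (adjusted p = 0.0293). They were the only rises among 47, 17 and 15 tested probe sets for glutathione, peroxidase and redox proteins, for defence, and for cold, dehydration and LEA proteins. By comparison, 0.822% of all tested probe sets rose. All 3 calls ended without any array but 2 SD replicate 2 (adjusted p up to 0.243), and in the fit of 10 arrays (adjusted p = 0.0853 for PRX4, 0.0811 for KR3 and 0.181 for LEA-2).

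The early nodulin-related, hypoxia-responsive, glycosyl hydrolase and helix-loop-helix transcripts form a cluster in the list of profiles that the study selected on these same arrays, as do ILL6, shikimate dehydrogenase and a β-amylase. Their direction is therefore not independent evidence. The receptor kinase that fell here is in a cluster with a rising trend in the paper. It had 9.64 and 10.28 at 6 SD, against 9.29 and 8.91 at 0 SD. PRX4, which rose here, is in a cluster with a falling trend there. It had 6.77 and 6.15 at 6 SD, against 6.61 and 6.83 at 0 SD. Of the 213 called probe sets, 13 are in that list of 331. Of the 19701 probe sets tested here, 196 are in it, and the rest of the list was not tested. The list came from a test of profiles over all 5 time points, which is another measure than the difference used here.

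Several of the strongest changes have no gene name. LOC100800709 had the largest difference of all tested probe sets. Its levels were 10.27 and 10.78 at 1 SD and 10.83 and 11.1 at 2 SD, against 5.84 and 6.01 at 0 SD. The induced arrays were 28.3-fold higher (difference 4.82, standard error 0.22, adjusted p = 0.00171).

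LOC100306332 had 10.58 and 11.13 at 1 SD and 11.45 and 11.28 at 2 SD, against 6.94 and 6.81 at 0 SD, and was 18.8-fold higher (adjusted p = 0.00212). NOD33, named in the annotation as a nodulin, had 11.07 and 11.75 at 1 SD and 11.45 and 10.85 at 2 SD, against 6.15 and 7.98 at 0 SD, an 18.6-fold rise (adjusted p = 0.0201) with a wide gap between the vegetative arrays. The calls of both LOC transcripts held in every alternative, and that of NOD33 ended without either 1 SD array or 2 SD replicate 1 (adjusted p up to 0.0748). The LOC transcripts were singled out after their values were seen. Of the 162 rises, 35 had a name and 78 had no symbol or annotation at all.

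Where several tested probe sets carried the same gene symbol and 1 of them passed, the others pointed the same way. There were 24 such symbols, in 9 of which all probe sets passed in the same direction, and in none did 2 probe sets differ in sign. The probe set annotated as BMY1 that differed by −0.55 carries another symbol than the rest and is not in that count. The 4 probe sets of LOC100785506 differed by 2.21 to 2.43, and 3 of them passed. Such probe sets share their arrays and are not replicates of the comparison.

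Many of the processes searched for had no transcript past the test. Of 33 gene lists, 15 had no member past the test. None of 5 tested probe sets for flowering factors passed, among them SVP, a repressor of flowering in Arabidopsis (0.81, adjusted p = 0.0882). None passed among 9 for meristem homeobox factors (median 0.2), 7 for the cell cycle and histones (median −0.19), 11 ribosomal proteins (median −0.09), 3 cytokinin, 3 ethylene and 8 brassinosteroid probe sets, 20 for the cell wall and 28 aquaporins. PCNA, the sliding clamp of DNA replication, differed by −0.61 to −0.19 over its 4 probe sets, with adjusted p of 0.233 or higher. Of 22 heat shock and chaperone probe sets, HSP23.9 (−1.45, adjusted p = 0.0863) and a heat shock factor HSF-01 (1.16, adjusted p = 0.0648) lay farthest out. A difference that missed the threshold is not shown to be absent.

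**Figure D4:**
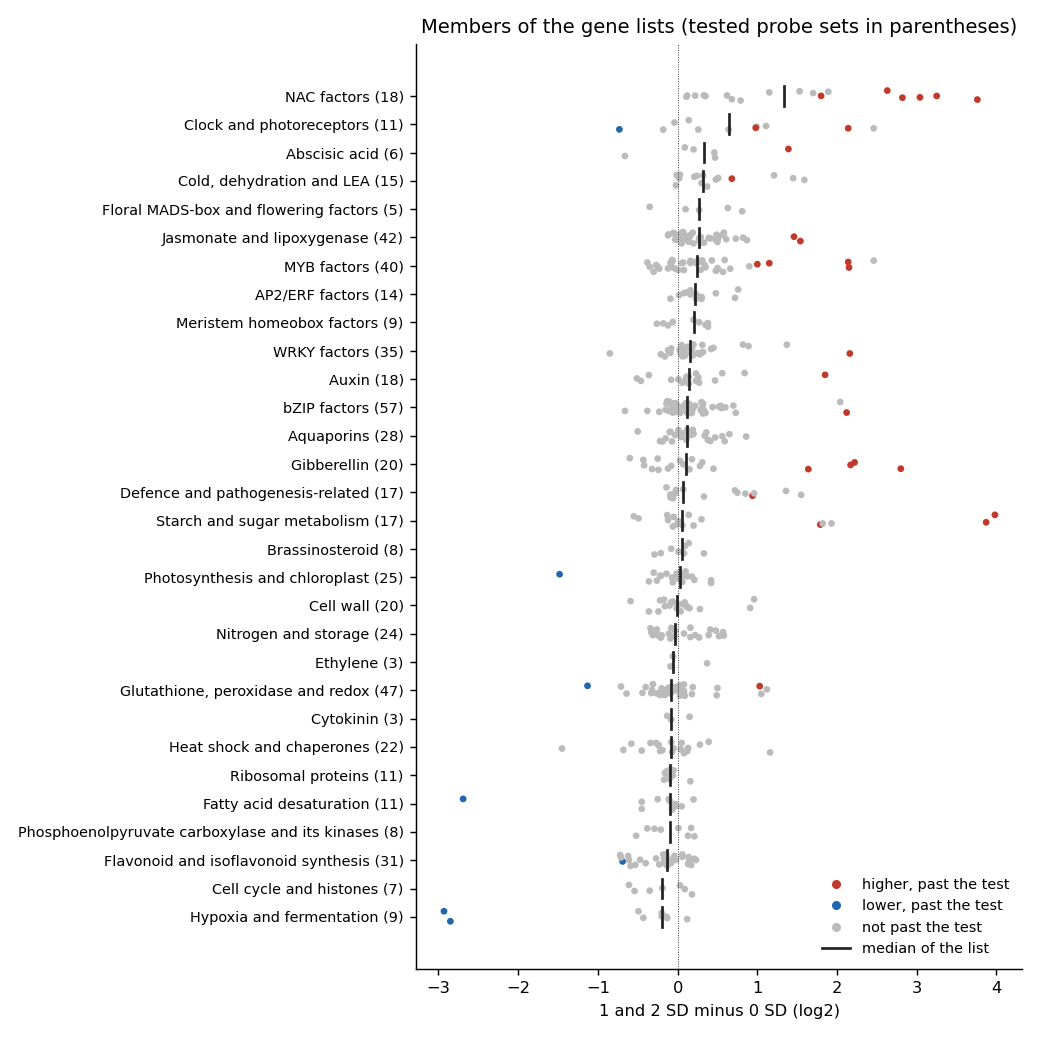
Each point is a tested probe set of a gene list, placed by its log2 difference (1 and 2 SDs minus 0 SD), for the lists with at least 3 tested members. Red and blue points passed the test, grey ones did not, and the bar is the median of the list, highest at 1.34 for the 18 tested NAC probe sets and 0.24 for all 42 NAC probe sets with no filter, which are not drawn.

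No transcript passed the test between the first and the second short day. In the fit of all 10 arrays with a mean for each time point, 29 probe sets rose (0.147%) and 4 fell (0.0203%) at 1 SD relative to 0 SD, and 22 rose (0.112%) and 5 fell (0.0254%) at 2 SD relative to 0 SD. These contrasts share the 0 SD arrays. Between 2 and 1 SD no probe set was higher (0%) or lower (0%) by limma, whereas 88 and 74 had an unadjusted p under 0.05. The count was also 0 in each alternative.

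Among the named transcripts bright enough for the test the difference between 2 and 1 SD ran between −0.84 for a GA2OX6 probe set and 0.5 for a GmJAZ1 probe set, each with an adjusted p of 1. For BMY2, by its brighter probe set, the difference from 0 SD was 4.28 at 1 SD and 3.68 at 2 SD, and neither passed in this fit (adjusted p = 0.0569 and 0.115). The pooled call of BMY2 therefore rests on taking both time points together. NOD33, GmNAC109, GA2OX8 (brighter probe set), ILL6, shikimate dehydrogenase, the early nodulin-related and hypoxia-responsive transcripts, SACPD-C and ELIP passed at each of 1 and 2 SDs. For GmNAC109 the differences were 3.37 (adjusted p = 0.0294) and 3.13 (adjusted p = 0.0414), and for SACPD-C −2.76 (adjusted p = 0.0147) and −2.62 (adjusted p = 0.0224).

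The called transcripts were also followed to 4 and 6 SDs. Relative to the 0 SD mean, the median of the 162 rises was 1.41 to 1.68 on the arrays at 1 and 2 SDs, 1.07 and 0.87 at 4 SD, and 1.65 and 1.08 at 6 SD. The median of the 51 falls was −0.99 to −0.86 at 1 and 2 SDs, −0.78 and −0.72 at 4 SD, and −0.87 and −0.18 at 6 SD. The value of −0.18 is that of 6 SD replicate 2, an array whose spread of values (interquartile range 3.6) was below that of the other arrays (3.94 to 4.02). Of the 162, 155 and 159 lay above both 0 SD arrays on the 4 SD arrays (29.4% and 29.5% of all tested) and 157 and 130 on the 6 SD arrays (29.2% and 23.8%). Of the 51, 49 and 50 lay below both at 4 SD (40.7% and 33.3% of all tested), and 48 and 25 did at 6 SD (45.1% and 58.3%), so that on 6 SD replicate 2 the share of the 51 was no higher than that of all tested. These medians share the 0 SD arrays that chose the transcripts.

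Between 4 SD and the mean of 1 and 2 SDs, 1 of the 162 and none of the 51 differed with adjusted p under 0.05, and the median differences were −0.56 and 0.2. The profiles of single genes varied. BMY2 had 7.38 and 7.06 at 4 SD and 9.79 and 7.83 at 6 SD, and NAC19 (first probe set) had 6.98 and 6.82 and then 9.75 and 7.83, so that both were lower at 4 SD than on any array at 1 and 2 SDs. The hypoxia-responsive transcript stayed low, at 5.51 and 5.18 at 4 SD and 5.08 and 5.46 at 6 SD. The glycosyl hydrolase had 6.25 and 6.4 at 4 SD and 5.18 and 5.14 at 6 SD, each below its values at 1 and 2 SDs. GmGSTU2 had 7.68 and 7.89 at 4 SD, above all 4 of its values at 1 and 2 SDs. Of the floral factors too dim for the test, AP1 had 8.33 and 10.17, FRUITFULL 9.43 and 10.11 and SEP3 6.03 and 8.71 at 4 SD, each above all of its values at 1 and 2 SDs.

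**Figure D5:**
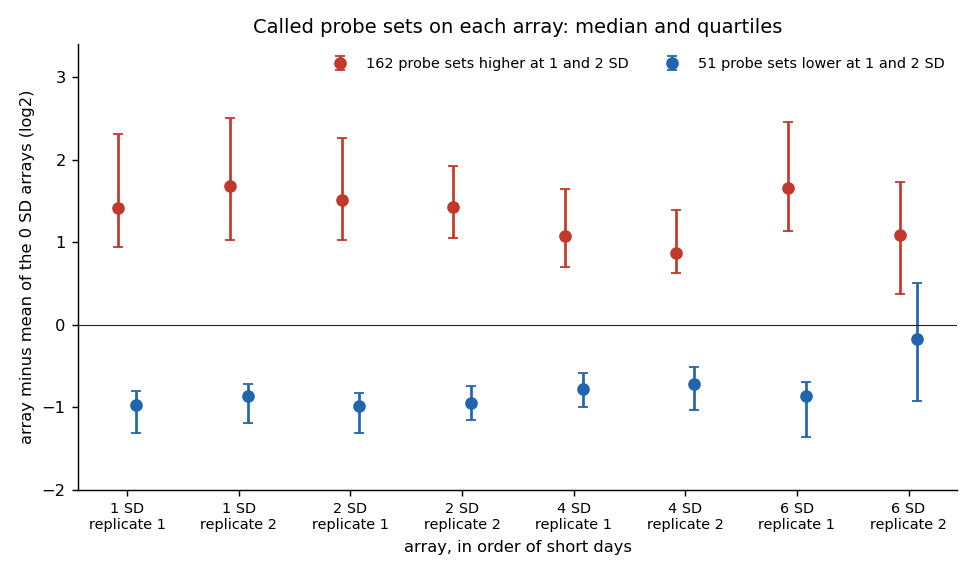
For each array at 1, 2, 4 and 6 SDs, the point is the median and the bars are the quartiles of the difference from the mean of the 0 SD arrays (log2), in red for the 162 probe sets that rose and in blue for the 51 that fell at 1 and 2 SDs. Medians of the rises lie between 0.87 and 1.68, and those of the falls lie below −0.7 except on 6 SD replicate 2.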

How the data were processed

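Per the labels and methods, the authors deposited log2 intensities made from Affymetrix Soybean GeneChip scans by RMA (background correction, quantile normalization and a summary per probe set); the version of RMA is not given in the sources used here. The table holds 37746 probe sets, of which 37593 are soybean, 105 Affymetrix controls and 48 rRNA probe sets, and only the soybean ones were used. The 4 arrays at 1 and 2 SDs were compared as 1 group with the 2 arrays at 0 SD by limma 3.58.1 (lmFit and eBayes, 4 residual degrees of freedom, two-sided) in R 4.3.3, with Benjamini-Hochberg adjustment over 19701 probe sets. A fit of all 10 arrays with 5 time-point means gave 1 SD and 2 SD minus 0 SD, 2 SD minus 1 SD, and 4 SD minus the mean of 1 and 2 SDs. Tables and plots were made with Python 3.11.15. Precision is limited by the number of arrays, 2 at each time point, with a median standard error of 0.133.

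Genes named are, of those with a gene name, the 12 that rose most and the 12 that fell most (10 falls had one), up to 4 called members of each gene list, the members of the 2 early clusters of the study, and 3 floral factors; other names were chosen after their values were seen, as examples. The comparison, the members and the gene lists were chosen with earlier results of these data known. Lists were found by words and symbol patterns, the patterns written after the annotation was seen. A symbol was paired with 9047 probe sets, 370 of them with several symbols and named by none, and 28546 had no symbol. Probe sets ending in _s_at, _x_at or _a_at can report several transcripts. A search for promoter motifs was not run. Replicate numbers were not used as pairs, since the deviations of same-numbered arrays correlated at 0.629 between 0 and 2 SD but at −0.248 and −0.373 between 1 SD and these. Alternatives were other filters, normalizations, priors, array sets, array weights, a replicate block and leaving out each array. In 1 simulated data set the main test recovered 30 of 50 log2 changes of 1, 46 of 50 of 2, 27 of 50 of −1 and 49 of 50 of −2. It called 4 of 19501 probe sets with none. The simulated noise was independent between arrays and probe sets, with spreads shuffled over probe sets. It left out the likeness between certain arrays seen here, so that these figures do not give the error rate of the calls above.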

Additional observations from a re-analysis of the deposited data

Results flagged for a closer look

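In 3 named transcripts a single array at 1 or 2 SDs lay far from the other 3, with a gap to the nearest above the 95% critical value of Dixon's test for 4 arrays. Chance alone marks about 1 in 20 groups of 4, and 47 named probe sets were examined. For GA2OX8 (brighter probe set) 2 SD replicate 2 had 9.06, below 9.67 to 9.78 on the others. For the glycosyl hydrolase family 1 transcript 1 SD replicate 2 had 8.19, above 7.57 to 7.65. For GmJAZ1 (brighter probe set) 1 SD replicate 1 had 11.15, below 11.61 to 11.66. In each the value stayed on its side of both 0 SD arrays. No named transcript bright enough to be tested differed between 2 and 1 SD by the test of that difference.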

How the results depend on the processing

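The 162 rises and 51 falls became 73 and 8 in the fit of all 10 arrays with 5 time-point means, 120 and 25 with 3 time-point means on 6 arrays, and 264 and 87 with array weights. With each array left out in turn they ran between 17 and 293 and between 3 and 97, and when a 0 SD array was left out the lone one was assumed to vary like the others. The falls numbered 24 without 0 SD replicate 2. Every one of the 213 differences kept its sign in every alternative; 9 rises and 2 falls kept their call in all. The cause of the lower counts was not tested, beside the fewer arrays when one is left out. The replicate numbers do not pair the arrays across all of 0, 1 and 2 SD. Deviations of same-numbered arrays correlated at 0.629 between 0 and 2 SD, but at −0.248 and −0.373 between 1 SD and these. The main test takes no account of that likeness between 0 and 2 SD. A replicate block gave 121 rises and 43 falls. It ended the calls of LHY, LUXC, CHI1A, PRX4, LEA-2 and the dimmer GA2OX6 probe set (adjusted p = 0.0696, 0.0565, 0.0613, 0.0559, 0.0538 and 0.0674 by limma). Of the 38 named calls, 16 ended in the fit of 10 arrays, 9 with 3 time-point means, 4 with array weights, 2 with no filter, and 1 each with a filter at the 25th percentile and an intensity trend with a robust prior, and none with quantile normalization anew or a common median. No sign of a named call turned. With an array left out none of the 213 signs could turn, since the groups do not overlap in these probe sets. Between 2 and 1 SD the count was 0 in every alternative, and the smallest adjusted p was 0.578, without 2 SD replicate 1. Probe sets near the lower quartile, such as BMY2 at 0 SD, have folds that depend on how the lowest intensities are estimated.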

Other observations

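Among called transcripts that no gene list holds and that were picked after their values were seen, SDP1-3, a lipase that breaks down stored oil in Arabidopsis, had 10.12 and 10.37 at 1 SD and 10.02 and 9.92 at 2 SD, against 7.89 and 8.85 at 0 SD. All 4 induced arrays were above both vegetative ones, and the rise was 3.33-fold (difference 1.74, adjusted p = 0.0362 by limma). A class 3 lipase similar to DEFECTIVE IN ANTHER DEHISCENCE1, a lipase of jasmonate synthesis in Arabidopsis, was 2.71-fold higher (adjusted p = 0.0301), with 7.23 and 7.26 at 1 SD and 7.55 and 7.88 at 2 SD, against 6.2 and 5.89 at 0 SD. GPPS, a geranyl diphosphate synthase of terpenoid synthesis, was 2.14-fold higher (adjusted p = 0.0412). Each of these 3 calls ended without 0 SD replicate 1, either 1 SD array or 2 SD replicate 1, and those of the class 3 lipase and GPPS also without 0 SD replicate 2.

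The Bowman-Birk protease inhibitors BBI-1 and BBI-2, which block trypsin and chymotrypsin, had differences of 1.36 and 1.55 that did not pass (adjusted p = 0.0575 and 0.0527). BBI-2 had 8.77 and 8.34 at 1 SD and 9.03 and 9 at 2 SD, against 6.85 and 7.61 at 0 SD. The dehydration-responsive ERD15 had differences of 1.45 and 1.59 over its 2 probe sets (adjusted p = 0.118 and 0.0944), with 0 SD arrays that differed by over 1 log2 unit from each other. The groups did not overlap in any of these, as in 10.6% of all tested probe sets.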
